A study of Mus musculus with 12 samples.

Results

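The clustered protocadherins are cell-surface adhesion proteins encoded in 3 neighbouring arrays of genes, alpha, beta and gamma, on mouse chromosome 18. The members described here were taken by name: protein-coding genes whose symbol places them in the alpha, beta or gamma array. The choice of this family was made with earlier results of these data known. This gave 57 genes (14 alpha, 22 beta and 21 gamma) of 35272 measured genes. They lie between 36930184 and 37841873 on chromosome 18 (GRCm38), over 912 kb, and all are read from the plus strand. All 57 passed the filter on low counts that left 16796 genes for testing.

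Each alpha and gamma gene has its own large first exon, which encodes the extracellular cadherin repeats and the membrane span, and this exon is spliced to constant exons shared by the whole array. The beta genes consist of a single large exon and have no constant part. In a neuron a few members are switched on by promoter choice, which involves the DNA-binding factor CTCF and the cohesin complex, and the combination at the surface lets a neuron tell its own branches from those of others. The last members of the alpha and gamma arrays, Pcdhac1, Pcdhac2, Pcdhgc3, Pcdhgc4 and Pcdhgc5, are called C-type isoforms and are regulated differently from the other members.

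RNA came from prefrontal cortex of female C57BL/6JN mice aged 4 months (young) or 20 months (old), given intraperitoneal saline or 3 mg/kg of the opioid morphine. Ribosome-depleted total RNA gave 12 libraries in 4 groups of 3, 1 group for each age and treatment. How long after injection the tissue was taken is not stated in the labels. Nor do they tie each replicate to its own animal, and the p-values then cover only the spread between these libraries, which may be technical.

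Estimated reads per library ran from 20236452 to 40480571, with 1 exception at 148856113 (young morphine replicate 2). All 16 neuron markers passed the filter, with summed levels between 12100 and 14000 CPM (counts scaled to the same total in each library) in every group. Markers of the olfactory bulb, which borders the frontal cortex, stood high in 4 libraries: young morphine replicate 3, old saline replicates 1 and 2, and old morphine replicate 1. Their mean log2 CPM was 1.46 to 2.59 in these libraries and -1.44 to -0.49 in the other 8. The summed level of the 14 olfactory bulb markers was 16.9 to 23.1 CPM in young saline, 21.9 to 87.7 in old saline, 15.2 to 154 in young morphine and 15.9 to 153 in old morphine, and Uncx was at 0 in every library outside young morphine. Of the 13 that could be tested, 13 were higher in old mice under saline, 8 under morphine and 13 on average. The median log2 fold changes were 1.84, 0.03 and 0.96. Over all genes tested, 52.3%, 52.4% and 54.5% were higher in old mice. None of the 13 was called for age by edgeR. DESeq2 called 1 under saline and 1 on average, where it called 2.32% and 15.5% of all genes. In bulk tissue, fewer cells of a type and less RNA per cell cannot be told apart.

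Levels of the members covered a wide range, compared here as TPM (a level per transcript length, scaled to the same total in each library). The gamma array was the most abundant, with a summed level of 416 TPM over the 12 libraries, against 142 TPM for beta and 101 TPM for alpha. The C-type isoform Pcdhgc5 (37819513 to 37841873) alone had a mean of 123 TPM, followed by Pcdhgc3 with 49.6 TPM and Pcdhac2 with 30.7 TPM. The other C-type isoforms were lower, Pcdhgc4 at 9.1 TPM and Pcdhac1 at 5.42 TPM. Of the gamma members that are not C-type, the highest were Pcdhga11 at 21.4 TPM and Pcdhga6 at 20.1 TPM. In the alpha array Pcdhac2 was followed by Pcdha12 at 11 TPM and Pcdha11 at 8.69 TPM. The highest beta members were Pcdhb17 at 11.8 TPM, Pcdhb9 at 11.4 TPM and Pcdhb16 at 9.27 TPM.

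**Figure D1:**
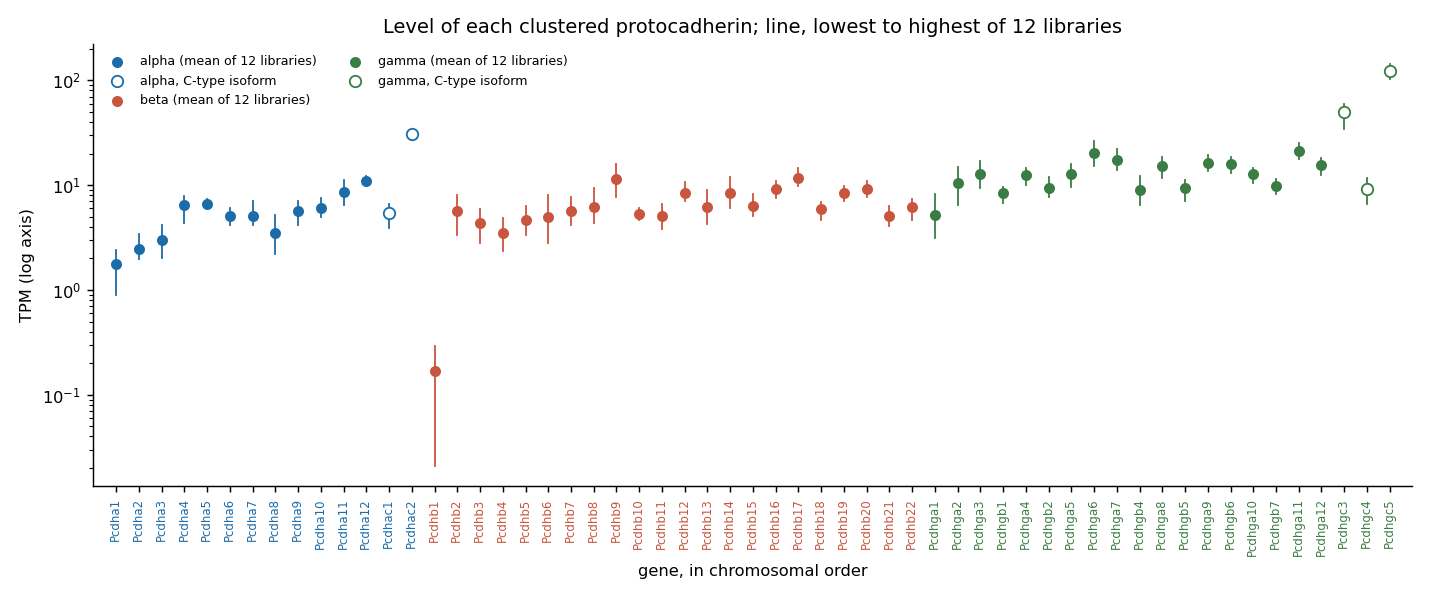
Mean level of each member over 12 libraries (TPM, log axis) in chromosomal order, with a line from the lowest to the highest library; open circles are C-type isoforms. Pcdhgc5 is highest at 123 TPM and Pcdhb1 lowest at 0.169 TPM.

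Levels ran with position. From the first gene of an array to the last, the mean TPM had a Spearman rho with order of 0.71 over the 14 alpha genes, 0.61 over the 22 beta genes and 0.49 over the 21 gamma genes, values given as a description across genes that share the same libraries. Pcdhb1 (37264938 to 37267525), the first beta gene, was nearly silent at 0.169 TPM. Its level lay between 0.0263 and 0.361 CPM, where 3 reads correspond to 0.0202 to 0.1482 CPM depending on the library, so no age difference could be read from it at this depth. The remaining 56 members had means of 1.75 TPM (Pcdha1) or more.

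Members differed between the ages in many cases and in 1 main direction. Averaged over saline and morphine, 28 of the 57 members were higher and 2 were lower in old than in young mice, by edgeR's quasi-likelihood test with a Benjamini-Hochberg adjusted p under 0.05 over all 16796 genes. The background in that comparison was 5.69% of all genes higher and 6.41% lower. The median log2 fold change was 0.27 over the 57 members and 0.02 over all genes tested. By array, 17 of 22 beta genes rose and 0 fell, 9 of 21 gamma genes rose and 1 fell, and 2 of 14 alpha genes rose and 1 fell. The medians were 0.39 for beta, 0.20 for gamma and 0.08 for alpha, and the difference between arrays was not tested.

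The average rests on 2 comparisons that share no library, although both came from 1 fit whose spread was estimated over all 12 libraries. Under saline, 6 members rose and 0 fell, against a background of 0.238% of genes higher and 0.226% lower. Under morphine, 20 rose and 1 fell, against 4.93% higher and 4.72% lower. All 6 members called under saline were also called under morphine, where they were 6 of 21. Over all genes tested, 40 were called higher under saline, and 20 of these were also called higher under morphine. The log2 fold changes had the same sign in both comparisons for 49 of 57 members (86.0%), against 63.5% of all genes tested. Across the 57 members the changes under saline and under morphine correlated at 0.71 (Pearson) and 0.74 (Spearman), and across all genes tested at 0.21 and 0.35. Genes are not independent replicates, so these are descriptions. Whether the age difference itself differed between saline and morphine was tested with edgeR, DESeq2 and limma-voom, which called 0 of 57 members. Over all genes, edgeR and limma-voom called 0% and DESeq2 called 0.685%. By edgeR 2 members, Pcdhb12 and Pcdhb14, had an unadjusted p under 0.05.

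**Figure D2:**
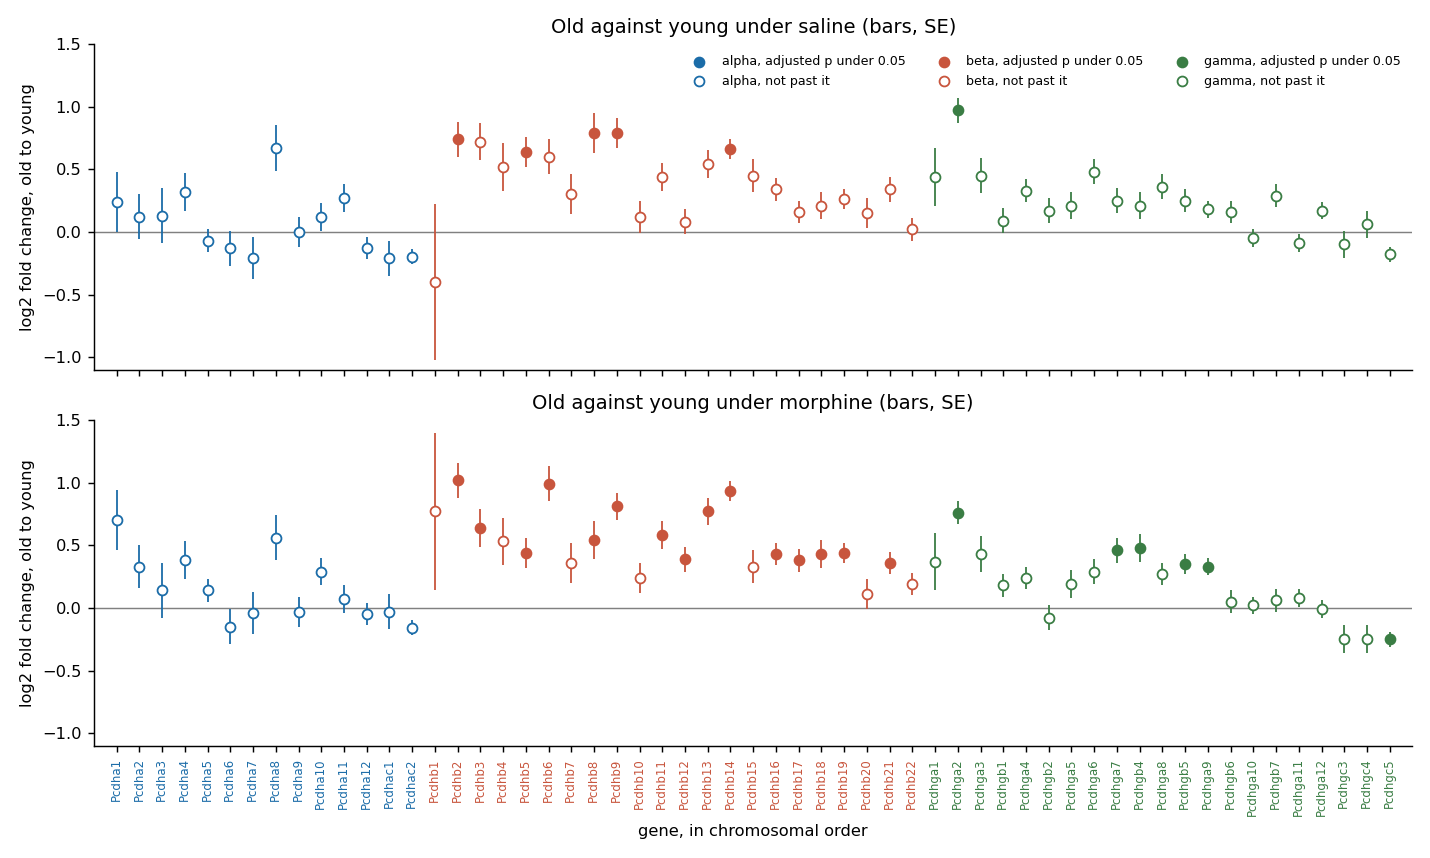
Log2 fold change of old against young with its SE for each member in chromosomal order, under saline (top) and morphine (bottom); filled circles have an adjusted p under 0.05. Beta genes lie above 0 except Pcdhb1 under saline, and the gamma array runs from Pcdhga2 at 0.97 (saline) and 0.76 (morphine) down to Pcdhgc5 at -0.18 and -0.25.

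Taking all 6 old against all 6 young libraries, every old library lay above every young one for 17 members, against 1.45% of all genes tested. For 0 members did every old library lie below every young one, against 2.61% of all genes. The 17 were Pcdhb2, Pcdhb3, Pcdhb5, Pcdhb6, Pcdhb8, Pcdhb9, Pcdhb11, Pcdhb13, Pcdhb14, Pcdhb16, Pcdhb19 and Pcdhb21 of the beta array and Pcdhga2, Pcdhga6, Pcdhgb4, Pcdhgb5 and Pcdhga9 of the gamma array. Within saline, 27 members had old libraries all above the young (background 9.15%) and 3 all below (8.92%). Within morphine the counts were 28 (17.1%) and 2 (16%).

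In the beta array, Pcdhb14 (37447656 to 37456350) had the smallest p of all members under morphine and on average, while under saline Pcdhga2 did. Its level was 20.0, 19.9 and 19.7 CPM in the young saline libraries and 30.6, 35.8 and 27.9 CPM in the old saline libraries. Under morphine it was 16.8, 17.7 and 18.2 CPM in young and 34.3, 32.2 and 34.0 CPM in old mice. The highest young library (20.0 CPM) lay well below the lowest old one (27.9 CPM). The log2 fold change was 0.66 ± 0.08 (SE; edgeR adjusted p = 0.00247) under saline, 0.93 ± 0.08 (adjusted p = 0.0001) under morphine and 0.80 ± 0.06 (adjusted p = 5.45e-06) on average.

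Pcdhb9 (37400855 to 37403909) gave 12.8, 11.5 and 12.2 CPM in young saline and 21.2, 20.6 and 21.3 CPM in old saline. Under morphine it gave 13.6, 11.6 and 13.0 CPM in young and 20.0, 19.4 and 27.3 CPM in old mice. Again no young library reached the lowest old one, and old morphine replicate 3 stood above the rest. The log2 fold changes were 0.79 ± 0.12 under saline (edgeR adjusted p = 0.00851) and 0.81 ± 0.11 under morphine (adjusted p = 0.00321).

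Pcdhb2 (37294812 to 37297624), near the start of the array, had the largest average change of any member, 0.88 ± 0.10 (edgeR adjusted p = 0.000316). It was at 6.43, 4.58 and 5.16 CPM in young saline, 9.64, 8.73 and 8.75 CPM in old saline, 5.19, 4.69 and 5.84 CPM in young morphine and 10.1, 9.81 and 11.8 CPM in old morphine. The 6 old libraries lay between 8.73 and 11.8 CPM and the 6 young ones between 4.58 and 6.43 CPM. Pcdhb5 (0.64 ± 0.12) and Pcdhb8 (0.79 ± 0.16) completed the beta genes called under saline. Pcdhb6 and Pcdhb13 rose under morphine, by 0.99 ± 0.14 and 0.77 ± 0.11, and had 0.60 ± 0.14 (adjusted p = 0.0744) and 0.54 ± 0.11 (adjusted p = 0.0508) under saline.

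The other beta genes that rose on average were Pcdhb3 (0.68), Pcdhb4 (0.53), Pcdhb11 (0.51), Pcdhb15 (0.39), Pcdhb16 (0.39), Pcdhb19 (0.35), Pcdhb21 (0.35), Pcdhb18 (0.32), Pcdhb17 (0.27) and Pcdhb12 (0.23). The 5 beta genes that did not pass were Pcdhb1, Pcdhb7, Pcdhb10, Pcdhb20 and Pcdhb22. Their log2 fold changes ran from 0.11 (Pcdhb22) to 0.33 (Pcdhb7), all above 0. The average change fell along the array, with a median of 0.54 over the first 11 genes and 0.35 over the last 11, and a Spearman rho with order of -0.49 over the 22 genes. Mean TPM had a rho of -0.13 and GC share 0.07 with the change over the same genes. Paralogous beta genes resemble each other in sequence, so reads could be divided among them by the quantification, and single-gene values carry that uncertainty.

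In the gamma array, Pcdhga2 (37668953 to 37841870), the second gene, had the largest change. It was at 17.8, 16.3 and 20.1 CPM in young saline and 33.5, 35.9 and 36.1 CPM in old saline. Under morphine it was at 18.4, 16.9 and 21.7 CPM in young and 33.9, 31.2 and 30.8 CPM in old mice. The highest young library (21.7 CPM) and the lowest old one (30.8 CPM) did not meet. The log2 fold changes were 0.97 ± 0.10 under saline (edgeR adjusted p = 0.000258) and 0.76 ± 0.09 under morphine (adjusted p = 0.00189). Pcdhga1, just before it in the array, had 0.40 ± 0.16 on average (adjusted p = 0.136) on the same scale, and Pcdhga3, just after it, rose by 0.44 ± 0.10 (adjusted p = 0.0178).

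Along the rest of the gamma array the changes were smaller and uneven. Beside Pcdhga2 and Pcdhga3, the members that rose on average were Pcdhga6 (0.39), Pcdhga7 (0.35), Pcdhgb4 (0.34), Pcdhga8 (0.32), Pcdhgb5 (0.30), Pcdhga4 (0.28) and Pcdhga9 (0.26), all within the first 13 genes. Pcdhgb1 (0.13), Pcdhgb2 (0.04) and Pcdhga5 (0.20), which lie in the same stretch, did not pass. From the 14th gene on none rose: Pcdhgb6 had 0.11, Pcdhga10 -0.01, Pcdhgb7 0.18, Pcdhga11 -0.01 and Pcdhga12 0.08, none past the test. Pcdhga11, the most abundant of these, was at 56.0 ± 3.41 CPM in young saline and 52.6 ± 1.68 CPM in old saline (SD, n = 3), with overlapping libraries. The Spearman rho of the average change with order was -0.78 over the 21 genes and -0.65 over the 18 that are not C-type, with the same sign under saline (-0.71) and morphine (-0.70). GC share had a rho of -0.60 with the change over the 21 genes and -0.36 over the 18.

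The alpha array had the smallest median change. Pcdha8 (36992371 to 37187657) rose, from 6.89, 7.81 and 5.51 CPM in young saline to 12.1, 7.94 and 12.1 CPM in old saline, and from 6.52, 6.08 and 8.01 CPM in young morphine to 11.6, 9.86 and 8.63 CPM in old morphine. The groups did not overlap within either treatment, although the lowest old saline library (7.94 CPM) lay close to the highest young saline library (7.81 CPM). Its average log2 fold change was 0.61 ± 0.13 (edgeR adjusted p = 0.0095), and it was not called under saline (adjusted p = 0.13) or morphine (adjusted p = 0.0643) alone. Pcdha4 rose by 0.35 ± 0.11 on average (adjusted p = 0.0453). That call was lost with length-scaled counts (adjusted p = 0.112), with the replicate block (0.051) and with the GC and length trend removed (0.173). Of the other 10 alpha genes that are not C-type, 6 had values above 0 and 4 below, and none passed the test. Pcdha12 and Pcdha11, the most abundant of them, had -0.09 ± 0.06 and 0.17 ± 0.08.

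None of the 5 C-type isoforms rose, and 2 fell. Pcdhgc5 was at 278, 292 and 277 CPM in young saline and 227, 264 and 259 CPM in old saline. Under morphine it was at 285, 284 and 262 CPM in young and 233, 234 and 232 CPM in old mice. The groups did not overlap within a treatment, and it fell by 0.21 ± 0.04 on the log2 scale on average (edgeR adjusted p = 0.00688). The fall passed the test under morphine (-0.25 ± 0.06, adjusted p = 0.0185) and not under saline (-0.18 ± 0.06, adjusted p = 0.221).

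Pcdhac2, the last alpha gene, was at 93.1, 84.9 and 90.6 CPM in young saline, 77.4, 73.7 and 82.5 CPM in old saline, 89.1, 93.4 and 86.2 CPM in young morphine and 76.4, 77.1 and 86.4 CPM in old morphine. The saline groups did not overlap, and old morphine replicate 3 (86.4 CPM) lay inside the young morphine range. It fell by 0.18 ± 0.05 on average (edgeR adjusted p = 0.0196). Pcdhgc3 (-0.17 ± 0.07), Pcdhgc4 (-0.10 ± 0.08) and Pcdhac1 (-0.12 ± 0.10) had values below 0 that did not pass. All 5 C-type isoforms thus had average values below 0, with a median of -0.17, beside 0.27 for the 18 other gamma genes and 0.15 for the 12 other alpha genes.

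**Figure D3:**
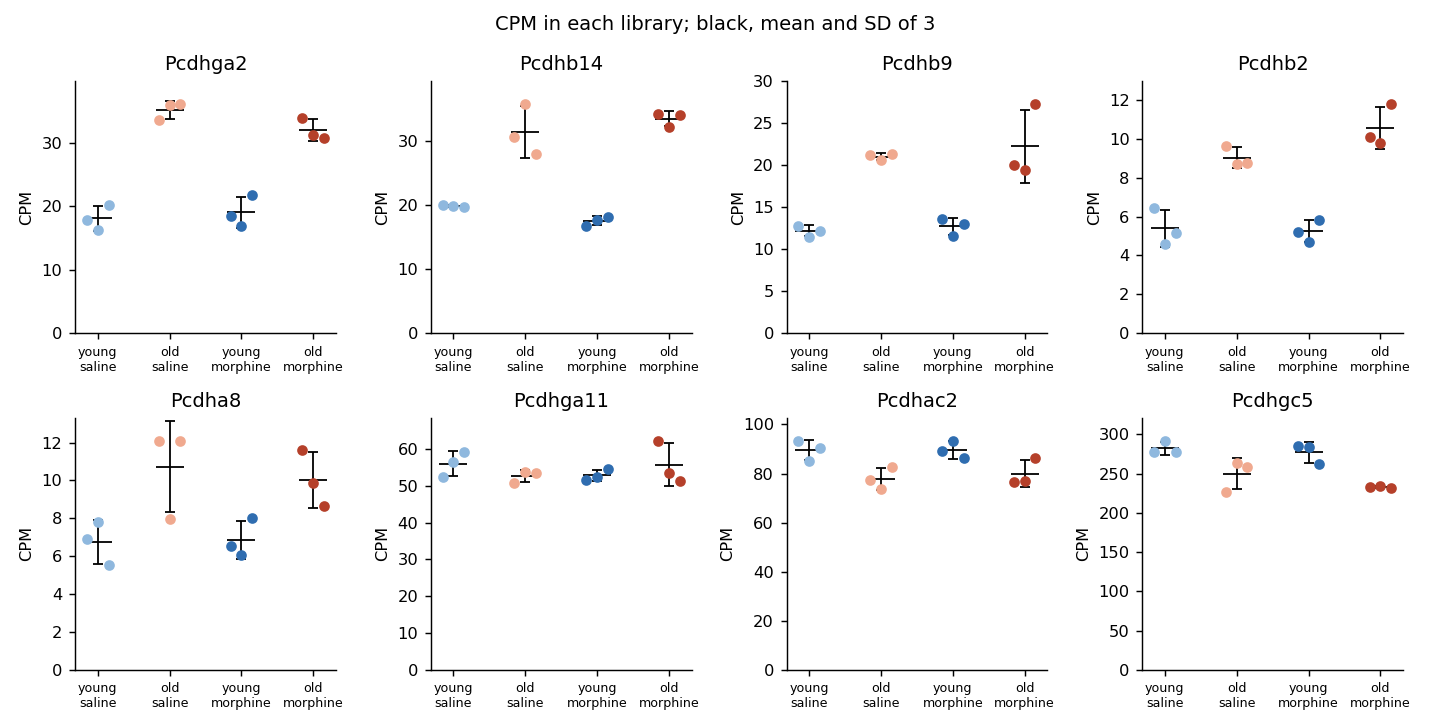
CPM of 8 members in each library, by age and treatment, with the mean and SD of 3; every axis starts at 0. For Pcdhga2, Pcdhb14, Pcdhb9 and Pcdhb2 the old libraries lie above all young ones, Pcdhga11 overlaps, and Pcdhac2 and Pcdhgc5 are lower in old mice.

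The summed levels show how the balance between the arrays moved. The beta genes together were at 120 ± 1.61 TPM in young saline and 166 ± 2.36 TPM in old saline (SD, n = 3), and at 124 ± 8.79 TPM in young morphine and 160 ± 10.9 TPM in old morphine. The lowest old library had 151 TPM and the highest young library 134 TPM, so the ages did not overlap. The alpha sum was 97.4 ± 3.20 and 102 ± 5.36 TPM under saline and 106 ± 4.22 and 101 ± 4.66 TPM under morphine, young before old, with overlap in both. The gamma sum was 401 ± 23.2 and 446 ± 21.5 TPM under saline, and 413 ± 14.6 and 404 ± 39.5 TPM under morphine. Its libraries did not overlap between the ages under saline and did under morphine.

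The share of all clustered protocadherin TPM held by the 5 C-type isoforms was 34.8 to 38.1% in the 6 young libraries and 28.4 to 30.5% in the 6 old ones. Computed from CPM it was 36.0 to 38.5% and 29.3 to 32.2%. The share held by beta genes was 19.4 ± 0.967% in young saline, 23.2 ± 0.415% in old saline, 19.3 ± 0.555% in young morphine and 24.1 ± 0.942% in old morphine. For both shares the young and old libraries were apart under either treatment. With 3 libraries against 3 an exact permutation test cannot give a two-sided p below 0.1, and none was run on these sums because they are made from the members.

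**Figure D4:**
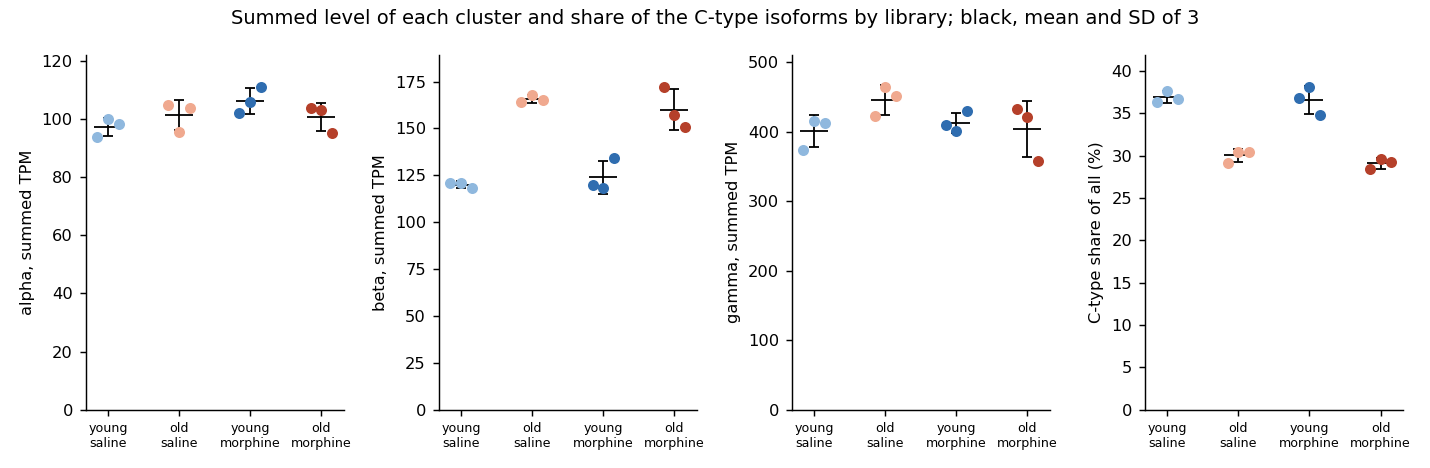
Summed TPM of the alpha, beta and gamma genes and the share of the 5 C-type isoforms (%), by library, with the mean and SD of 3. The beta sum is higher and the C-type share lower in every old library than in every young one, while alpha and gamma sums overlap between the ages in at least 1 treatment.

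Several measured features moved with the age comparisons. GC share of transcripts had a Spearman rho of -0.57 with the change under morphine, -0.18 under saline and -0.47 on average over 16780 genes. The median GC share was 46.5% in beta, 47.7% in alpha, 52.4% in gamma and 54.0% in the C-type isoforms, against 50.1% in all genes tested. With a smooth trend on GC share and length removed from each library, 6 members were called under saline, 7 under morphine and 24 on average (22 higher and 2 lower). Of all genes, 0.786%, 0.262% and 3.3% were called in that fit, beside 0.464%, 9.65% and 12.1% without the correction. The average medians were then 0.30 for beta, 0.21 for gamma, 0.01 for alpha and -0.18 for the C-type isoforms. Pcdhga2 (0.88), Pcdhb2 (0.82), Pcdhb9 (0.73) and Pcdhb14 (0.58) stayed called in that fit. Pcdhgc5 had -0.16 under morphine there (adjusted p = 0.379) and was called only on average (-0.18, adjusted p = 0.0446).

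Without the 4 libraries high in olfactory bulb markers, a setting added after the data were seen, 1 member was called under saline, 9 under morphine and 10 on average, with fewer libraries in the fit. Calls over all genes fell as well, to 0.0867%, 2.1% and 0.63%. Old saline was then replicate 3 alone, so the change under saline, which enters the average, rested on 1 old library. The average medians were 0.39 for beta, 0.23 for gamma, 0.08 for alpha and -0.15 for the C-type isoforms. Pcdhga2 was at 0.91, Pcdhb2 at 0.91, Pcdhb9 at 0.85 and Pcdhb14 at 0.71 on average. Pcdhgc5 was at -0.21 and Pcdhac2 at -0.14 on average without these 4 libraries, and neither was called on average there. In another fit, all 12 libraries were kept and the mean log2 CPM of the olfactory bulb markers entered the model. It called 3 members under saline, 21 under morphine and 29 on average, beside 0.179%, 10.1% and 8.25% of all genes. The part of olfactory bulb tissue in these changes was not tested. The 6 calls under saline became 2 without young saline replicate 3 and 3 without old saline replicate 2 or 3, where 0.0877%, 0.134% and 0.165% of all genes were called. The 21 calls under morphine became 11 without young morphine replicate 1 or 2 and 13 without old morphine replicate 3, where 2.25%, 4.51% and 2.88% of all genes were called. Counts rebuilt from TPM and length gave 3, 5 and 21 calls under saline, under morphine and on average, and called 0.0889%, 0.148% and 2.16% of all genes.

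Other cell types were followed through their markers. Over all genes tested, edgeR called 5.69% higher and 6.41% lower on average, the background for the marker counts on average below. Summed meningeal fibroblast markers were 241 to 378 CPM in young saline and 346 to 634 CPM in old saline, and 174 to 285 CPM in young morphine and 143 to 391 CPM in old morphine. Blood cell markers were 301 to 391 CPM in young saline, 353 to 928 CPM in old saline, 289 to 578 CPM in young morphine and 156 to 448 CPM in old morphine. Of 10 meningeal fibroblast and 7 blood cell markers, 0 were called for age under either treatment by edgeR, DESeq2 or limma-voom, and 0 had an unadjusted p under 0.05, while the medians under saline were 0.51 and 0.92. Of 16 neuron markers 1 rose on average (Vip, 0.33) and 3 fell (Slc17a7, -0.30, Tubb3, -0.31, and Stmn2, -0.29). Of 10 oligodendrocyte precursor markers 2 fell, Gpr17 by 0.62 and Olig1 by 0.23. Of 12 myelin markers 1 rose on average, Aspa by 0.49, with a median of 0.04. With age under morphine Aspa rose (0.49) and Cldn11 fell (-0.32), beside 4.93% of all genes higher and 4.72% lower. Of 12 endothelial and mural markers 1 rose on average, Abcc9 by 0.26, with a median of 0.05. Only 4 of 8 choroid plexus markers could be tested, and 2 rose on average, Kl by 0.50 and Clic6 by 1.37. Clic6 was low, with group means of 0.276 to 1.17 CPM. Of 12 markers each, 0 were called on average by edgeR for astrocytes and microglia, with 1 and 4 at an unadjusted p under 0.05. DESeq2 and limma-voom each called 1 astrocyte and 0 microglia markers, beside 15.5% and 12.4% of all genes. The part of these cell types in the changes of the protocadherins was not tested.

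Transcript models of the alpha and gamma genes with and without the constant exons were also compared, a comparison chosen after the data were seen. Of the alpha and gamma models, 47 contain the constant exons and 14 do not. Of those 14, 11 are annotated as retained-intron or processed transcripts, and they have 1 to 3 exons. In 12 genes both kinds had at least 1 TPM. Summed over these 12 genes, models without constant exons held 21, 27.7 and 26.8% of TPM in young saline and 36.4, 33.2 and 28.1% in old saline. Under morphine the shares were 26.9, 27.3 and 31.1% in young and 41.6, 38.1 and 36.4% in old mice. Every old library was above the young ones of its treatment, with means of 25.2% and 32.5% under saline and 28.5% and 38.7% under morphine, although old saline replicate 3 (28.1%) lay close to the highest young saline library (27.7%). The 4 libraries high in olfactory bulb markers had the highest shares of their groups: 36.4 and 33.2% in old saline replicates 1 and 2, 31.1% in young morphine replicate 3 and 41.6% in old morphine replicate 1. Without them the difference between the mean shares was 10.1 percentage points under morphine, beside 10.3. Under saline, where replicate 3 was then the only old library, it was 2.91, down from 7.34. The part of those libraries in the saline difference was not tested.

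In percentage points of the share, Pcdhgb2 had the largest change between the means, from 29.1 to 47.0% under saline and from 37.8 to 66.5% under morphine. Its model without constant exons was at 2.46 ± 0.927 TPM in young and 5.29 ± 2.21 TPM in old saline, and at 3.30 ± 1.23 and 6.15 ± 0.551 TPM under morphine. Its model with them was at 5.91 ± 0.615 and 5.67 ± 0.879 TPM under saline and at 5.46 ± 1.29 and 3.11 ± 0.636 TPM under morphine. The gene as a whole did not pass the test (0.04 ± 0.07 on average). In Pcdhga9 the short model went from 4.00 ± 0.614 to 5.69 ± 0.905 TPM under saline and from 4.04 ± 0.612 to 6.69 ± 1.49 TPM under morphine, beside 10.8 ± 0.125 to 12.4 ± 1.59 TPM and 10.5 ± 0.629 to 11.2 ± 0.268 TPM for the full-length one. The share of the short model separated the ages under morphine in Pcdhgb2, Pcdhga7, Pcdhga9, Pcdhga12 and Pcdhgc3, and in 0 of the 12 genes under saline. Over 8177 genes with retained-intron or processed models and protein-coding models, each at 1 TPM or more, the share of the first kind separated the ages in the same direction in 13.2% under morphine and 8.82% under saline. The short models of Pcdhga7 and Pcdhga1 are annotated as protein-coding, so that background does not match them in kind. Mean shares were lower in old than in young mice for Pcdha4 and Pcdhga1 under morphine and for Pcdhgc4 under saline.

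**Figure D5:**
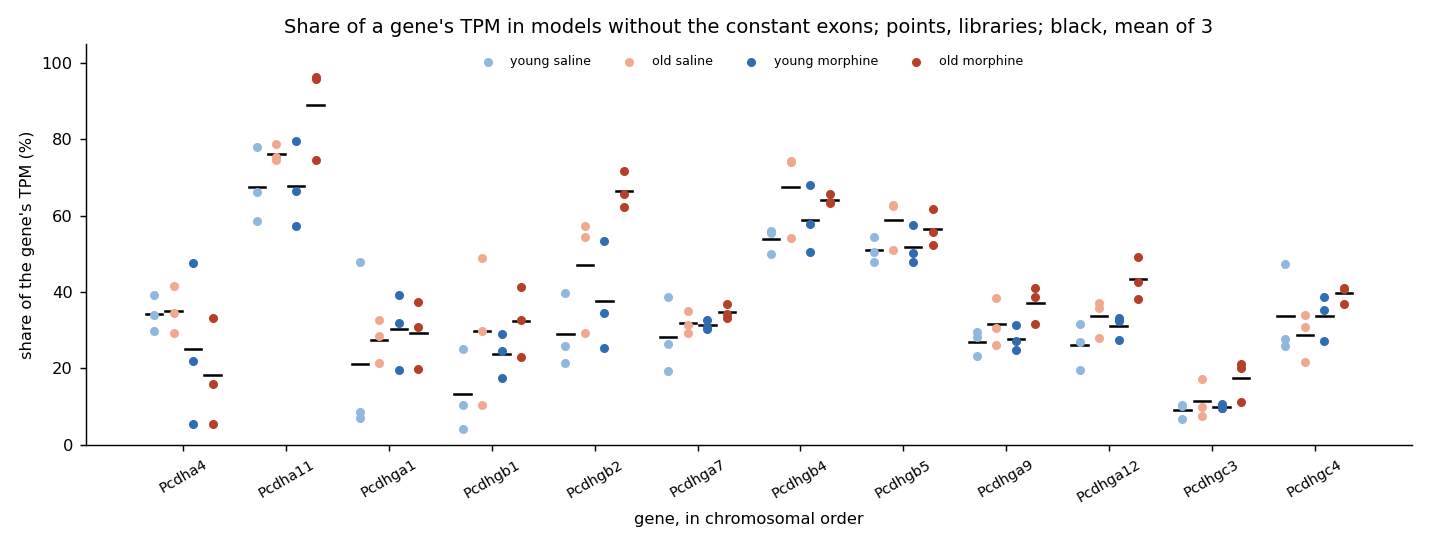
Share of a gene's TPM in transcript models without the constant exons (%), by library, for the 12 alpha and gamma genes with both kinds of model; black lines are means of 3. The share is higher in old mice for most genes, without overlap under morphine in 5 of them. The share of retained-intron and processed models did so in 13.2% of 8177 genes. The short models of Pcdhga7, which is 1 of the 5, and Pcdhga1 are annotated as protein-coding. Libraries of a group scatter widely in Pcdhga1, Pcdhgb1 and Pcdha4.

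A difference in the same direction was seen over all genes. In the transcript-level edgeR fit of 59815 models, the change of short models exceeded that of full-length models on average in 10 of the 12 member genes, with a median difference of 0.54. Over 6917 genes with both a retained-intron and a protein-coding model, the first exceeded the second in 71.4%, with a median difference of 0.17. In that fit Pcdhga2-201 was called under saline (background 0.00669% of models higher), Pcdhb14-201 under morphine (0.0134%), and Pcdhb2-201, Pcdhb6-201, Pcdhb9-201, Pcdhb13-201, Pcdhb14-201 and Pcdhga2-201 on average (0.0552%). None of the models without constant exons was called. The single model of Pcdhga2 contains the constant exons, and it rose by 0.83 on average at this level. Because alpha and gamma isoforms share constant exons, the division of reads among them by the quantification is uncertain.

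No member passed edgeR's test for morphine. In young mice 0 of 57 were called by edgeR (background 0% of all genes), with 3 at an unadjusted p under 0.05. DESeq2 and limma-voom called 0, beside 0.976% and 0% of all genes. In old mice 0 were called (background 0.583%), with 5 at an unadjusted p under 0.05. DESeq2 and limma-voom called 0 there, beside 4.62% and 0.357% of all genes. Averaged over both ages 0 were called (background 1.23%), with 5 at an unadjusted p under 0.05. There limma-voom called 0, beside 1.1% of all genes. DESeq2 called 1, Pcdhgc3 (-0.24 ± 0.08, adjusted p = 0.038), beside 4.49% of all genes. The median change over the members was -0.01 in young and 0.05 in old mice.

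Pcdhgc3, the second most abundant member, had the smallest adjusted p for the average morphine effect, 0.144 by edgeR. It was at 131, 135 and 133 CPM in young saline and 126, 108 and 122 CPM in young morphine, and at 100, 140 and 131 CPM in old saline and 107, 101 and 91.4 CPM in old morphine. Old saline replicate 1 lay within the old morphine range. Without that library the gene was called for morphine in old mice (-0.44 ± 0.08, adjusted p = 0.0133) and on average (-0.30 ± 0.05, adjusted p = 0.00653), a setting among several and not the main result. In old mice Pcdhgb2 had -0.32 ± 0.10 (adjusted p = 0.119).

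Genes lying among the arrays that are not members gave a local reference. The pseudogenes Gm18529 and Gm20162, located between beta genes, rose on average by 1.43 ± 0.31 (adjusted p = 0.0104) and 0.65 ± 0.20 (adjusted p = 0.044), and Gm19035, in the alpha array, by 0.61 ± 0.16 (adjusted p = 0.0261). The pseudogenes Gm36858 (0.32 ± 0.17, adjusted p = 0.228) and Gm18150 (0.31 ± 0.29, adjusted p = 0.525), also in the alpha array, did not pass. Levels of Gm18529 and Gm20162 were low, with group means of 0.254 to 0.961 CPM and 0.951 to 1.6 CPM. Reads of such pseudogenes can be shared with the genes they resemble. Taf7 and Slc25a2, ordinary genes on the minus strand between beta and gamma, had 0.15 ± 0.12 and -0.04 ± 0.26. The expressed protein-coding genes flanking the region, Zmat2 and Diaph1, had -0.07 ± 0.06 and -0.14 ± 0.05 (adjusted p = 0.462 and 0.0813). Pcdhgb8, annotated as a polymorphic pseudogene and so not a member, had 0.23 ± 0.12. The annotation also holds 3 read-through genes spanning the arrays, Gm42416, Gm37013 and Gm37388, which did not pass the filter, so few reads were assigned to them.

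Other genes of the pathway were taken from lists. Over all genes tested, 5.69% rose and 6.41% fell on average, with a median of 0.02. Of 30 cadherins and protocadherins outside the arrays, 0 rose and 5 fell on average, with a median of -0.08: Cdh13 (-0.39), Pcdh8 (-0.37), Celsr2 (-0.22), Pcdh1 (-0.16) and Cdh8 (-0.22), all adhesion molecules of the same superfamily. Of 14 genes for CTCF, cohesin and its regulators, 5 rose and 0 fell, with a median of 0.13. These were the cohesin subunits Stag2 (0.23), Stag1 (0.20) and Smc3 (0.16), the cohesin loader Nipbl (0.18) and the cohesin release factor Wapl (0.23). All of these passed under morphine, where 4.93% of all genes were called higher. Under saline 0 of the 14 passed by edgeR, DESeq2 or limma-voom, with 2 at an unadjusted p under 0.05 and a median of 0.03. The test of the difference between the treatments called 0 of them by these 3 tools, with 8 at an unadjusted p under 0.05.

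Of 23 silencing and DNA methylation genes, 2 rose and 2 fell, with a median of 0.04. Beside them 5.69% of all genes rose and 6.41% fell. Those that rose were Cbx3 (0.19), a heterochromatin protein, and Lrif1 (0.36). Suv39h1 (-0.23) and Ehmt2 (-0.12), both histone H3 lysine methyltransferases, fell. Of 9 genes for proteolytic processing of cadherins, 0 were called by edgeR, DESeq2 or limma-voom on average, with 2 at an unadjusted p under 0.05 and a median of -0.03. Of 24 intracellular partners and signalling genes, 0 rose and 2 fell, Nlgn2 (-0.19) and Nlgn3 (-0.12), both postsynaptic adhesion proteins.

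Over the 12 libraries, the genes whose log2 CPM followed Pcdhga2 most closely were Vmn1r90 (Pearson r = 0.958), the pseudogene Nlrp5-ps (0.956), Ankdd1b (0.951), the beta member Pcdhb5 (0.947) and Gm765 (0.945). These values describe 12 libraries of 2 ages, in which any gene that differs by age follows Pcdhga2 to some degree.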

How the data were processed

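Per the labels' protocols, Trizol RNA was depleted of ribosomal RNA, made into libraries and read on a NovaSeq. The authors quantified transcripts with Salmon 1.4.0 on GRCm38, per the submitters' processing notes, which also name DESeq2 1.30.1; its strand and bias settings, and which annotation release it used, are not stated there. The deposited files hold an estimated count and a TPM for each transcript, per the file headers. Of 113911 transcripts, 113694 were matched to 35272 genes of GENCODE M21, and the other 217, with 0.079 to 0.099% of estimated reads, were left out. The annotation gives 2 genes the symbol Pcdha11, and the earlier one is called Pcdha10 here, after RefSeq.

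The deposited estimated counts of a gene's transcripts were added up and rounded to whole numbers. edgeR 4.0.16 (R 4.3.3) kept 16796 genes with filterByExpr, scaled libraries by TMM and fitted the quasi-likelihood model to all 12 libraries, with 8 residual degrees of freedom and a common coefficient of variation of 11.1%. Each SE was taken as the absolute log2 fold change over the root of its F statistic. The test was checked on simulated counts. Replicate pairs differed by a chi-square per degree of freedom of 5.17 to 24.71, so none were copies. A floor of 3 reads was 0.0202 to 0.1482 CPM, which covers counting error only.

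Members, gene lists, tests and alternatives were chosen with earlier results of these data known. Named genes are Pcdhga2, Pcdhb14 and Pcdhb9, the 3 highest of each array, the C-type isoforms, called members (in each comparison up to 12 with the smallest p, and those of the opposite direction), genes lying among or beside the arrays, called genes of the other lists (up to 4 each, or all where few), and the 5 genes most like Pcdhga2; other members were named after their values were seen, to show their order. Alternatives were other scalings, filters, DESeq2 1.42.0, limma-voom (limma 3.58.1), length-scaled counts, fewer libraries, a replicate block, marker scores, a GC and length trend, and thinning of the deepest library.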

Additional observations from a re-analysis of the deposited data

How the results depend on the processing

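The direction of the called members held in every alternative: 6 members under saline and 21 under morphine kept their sign in 27 settings each, and 30 on average in 26. In the leave-one-out fits, 2 members under saline (Pcdhb14 and Pcdhga2), 10 under morphine and 25 on average were called throughout. The number called moved more, and so did the share of all genes called. For age under saline (6 calls) it was 15 with DESeq2 and 10 with the myelin score in the model, where 2.32% and 2.29% of all genes were called, beside 0.464%. It was 3 each with length-scaled counts, only the libraries compared, the olfactory bulb score, or the GC and length trend removed with the replicate block. It was 1 without the 4 libraries high in olfactory bulb markers, a setting added after the data were seen, and 2 to 6 when leaving out 1 library. For age under morphine (21 calls) it was 5 with length-scaled counts, 7 with the GC and length trend removed, 6 with that and the replicate block, 9 without the 4 libraries, and 11 to 23 when leaving out 1 library. For the mean age effect (30 calls) it was 17 with the trend removed and the replicate block, 10 without the 4 libraries, and 26 to 29 when leaving out 1 library. The cause was not tested for any of these settings. Without the 4 libraries, old saline was replicate 3 alone. There the smaller number of libraries and the lower olfactory bulb signal cannot be told apart.

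For morphine in old mice the count was 0 to 1 when leaving out 1 library, and for the mean morphine effect 0 to 1, and 1 with DESeq2; all other counts for morphine were 0. The replicate block alone gave 5, 17 and 28 calls for the 3 age comparisons. Replicate numbers did not pair the samples, with correlations between same-numbered libraries from -0.209 to 0.066.

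With CPM in place of TPM, the log2 ratio of the alpha sum, old to young, went from 0.06 to -0.04 under saline and from -0.08 to 0.02 under morphine, which reversed it. That of the beta sum went from 0.47 to 0.38 under saline and from 0.36 to 0.50 under morphine. That of the gamma sum, near 0 under morphine, went from -0.03 to 0.03, and to 0.05 without old morphine replicate 3. The share of models without constant exons rose by 7.34 percentage points under saline and 10.3 under morphine, and kept its sign when leaving out each library. Without the 4 libraries high in olfactory bulb markers it rose by 2.91 under saline, with replicate 3 the only old library, and 10.1 under morphine. Depth limited Pcdhb1, which lay between 0.0263 and 0.361 CPM.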
